A study of Mus musculus with 5 samples.

Results

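Conventional CD4+ T lymphocytes are the helper cells of the adaptive immune response, here taken as CD4+ cells without Foxp3. They were picked from kidney single-cell profiles by their raw UMI counts (unique molecular identifiers, 1 per captured RNA molecule). A member had at least 2 UMIs over Cd3e, Cd3d and Cd3g, at least 1 Cd4 UMI, no UMI of Cd8a, Cd8b1 or Foxp3, at most 1 UMI over the proliferation genes Mki67 and Top2a, at most 2 over the macrophage genes C1qa, C1qb and C1qc, and at most 1 over the endothelial genes Egfl7 and Plvap. Of 72896 deposited barcodes, 60043 were kept, those with 200 or more genes and no more than 30% of UMIs from the mitochondrion. Among these, 3827 cells met the rule. There were 146 in the control library, 891 and 814 in AKI 1 and AKI 2, and 749 and 1227 in CKD 1 and CKD 2.

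The kidneys came from male wild-type mice of the C57BL/6 strain, which were 8 to 10 weeks of age, and all cells were profiled with a droplet assay that reads the 3′ ends of transcripts. AKI mice received aristolochic acid I (AAI), a plant nephrotoxin taken up by the proximal tubule, at 3 mg/kg into the peritoneum every 3 days for 2 weeks. CKD mice were given the same course and were then left without AAI for 2 weeks, and the control mice received vehicle. There was 1 control library, and AKI and CKD had 2 libraries each. No label says whether the 2 libraries of a group came from separate mice, so every p-value below measures the spread between these libraries only.

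CD4+ T lymphocytes recognise peptides that antigen-presenting cells show on MHC class II. They then act on other cells through surface ligands such as CD40 ligand and RANKL and through secreted cytokines and chemokines. Helper subsets are told apart by their regulators, such as Tbx21 for Th1, Gata3 for Th2 and Bcl6 for follicular helper cells. Naive and central memory cells carry homing receptors such as Ccr7, which most T lymphocytes in peripheral tissue have lost.

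The members' summed UMIs per library ran from 620083 in the control to 7852363 in CKD 2. CKD 2 stood apart in depth, with a median of 5311 UMIs per member, whereas the other libraries had medians of 3459.5 to 3899. The median share of mitochondrial UMIs was 6.98% in the control and 3.08 to 3.87% in the other libraries. Members of AKI 1 and CKD 2 shared 1 barcode, as did members of AKI 2 and CKD 2. Free RNA was not removed from the counts, so the share of cells with a UMI is given beside the share among tubule cells of the same library. These tubule cells had no Cd3 UMI and at least 3 UMIs over Lrp2, Slc34a1 and Umod.

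Values below are counts per 1000000 UMIs of the summed members (CPM), listed for control, AKI 1, AKI 2, CKD 1 and CKD 2 in that order unless stated. The gate for CD8 T lymphocytes asked for at least 1 Cd8a or Cd8b1 UMI and no Cd4 or Foxp3 UMI and held 10063 cells. The gate for Foxp3-positive T lymphocytes asked for at least 1 Foxp3 UMI and no Cd8 UMI, left Cd4 open, and held 888 cells. Its 15 control cells were below the minimum of 20 and were left out. All other limits were those of the members.

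Genes that the rule did not use matched the label. Trac, which encodes the constant region of the T cell receptor alpha chain, stood at 502, 555, 602, 505 and 600 in the members and at 2.02 to 24.5 in kept cells with no Cd3 UMI. Cd40lg, the ligand by which helper cells engage CD40, stood at 144, 97.2, 90.6, 51.6 and 82.0 in the members and at 4.69 to 7.93 in CD8 T lymphocytes. Near the thresholds, Cd40lg was 1.11 per 10000 UMIs in cells with exactly 2 Cd3 UMIs and 0.43 in cells with only 1 that met the other limits. It was 0.908 in members with 1 Cd4 UMI and 0.65 in cells that met all limits but had no Cd4 UMI, which numbered 8321 cells. Cells left out for want of a Cd4 UMI thus carried Cd40lg as well. As a description of what the rule itself used, Cd3e stood at 326, 386, 384, 295 and 382 and Cd4 at 318, 294, 319, 298 and 252.

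Markers of other cells were present in the members. The 12 macrophage and monocyte markers summed to 855, 1150, 1150, 1630 and 1290 in the members and to 3640 to 27300 in cells with no Cd3 UMI. They include C1qa, C1qb and C1qc, which the rule limits in members but not in those cells, so part of this contrast was set by the rule. Among the 12, Cd74 had 404, 2765, 1476, 4110 and 8014 UMIs in members and Apoe had 22, 1064, 1310, 548 and 419. The 9 dendritic markers summed to 1070, 716, 504, 1180 and 1090 against 2520 to 10600 in cells with no Cd3 UMI. The 10 proximal tubule markers summed to 3290, 2220, 1100, 3570 and 663 in the members and to 7000, 7390, 7770, 9030 and 4450 in cells with no Cd3 UMI. The 8 distal nephron markers summed to 2010, 2190, 1640, 3370 and 736 against 8040, 13200, 12600, 11700 and 5190. Tubule RNA was thus highest in the members of CKD 1 and lowest in those of CKD 2. The 6 neutrophil markers summed to 3.23, 64.1, 4.75, 18.5 and 4.58 in the members, highest in AKI 1. Cells with no Cd3 UMI held 112 to 321 of them. Ly6g, 1 of these markers, was at 0 in the members of all libraries. The 7 gamma-delta and NKT markers summed to 54.8 in the control against 8.27 to 13.1 in the other libraries. The 9 natural killer markers summed to 118, 84.3, 68.8, 231 and 141 in the members and to 306 to 1900 in cells with no Cd3 UMI. The sum was thus higher in both CKD than in both AKI libraries of members. CD8 T lymphocytes had the same order of sums, with 130 and 160 in AKI and 285 and 169 in CKD. Tyrobp and Fcer1g held most of the members' sum. Tyrobp had 143 and 112 UMIs in AKI and 485 and 601 in CKD, and Fcer1g had 111 and 77 against 319 and 424. Eomes did not follow, with 91 and 52 UMIs in AKI and 15 and 52 in CKD, and Ncr1 had at most 1 UMI in a library.

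Members were least frequent in the control kidney and most frequent in CKD 2. They made up 1.59% of kept control cells (exact 95% binomial interval 1.35 to 1.87, counting error only). Their share was 7.95% (7.46 to 8.47) in AKI 1, 7.5% (7.01 to 8.01) in AKI 2, 3.88% (3.61 to 4.16) in CKD 1 and 12.9% (12.2 to 13.6) in CKD 2. All 4 AAI libraries lay above the control, and the 2 CKD libraries lay on either side of both AKI libraries. The CKD mean of 8.39% exceeded the AKI mean of 7.73% by 0.666 percentage points, less than the pooled SD of 4.52 points (n = 2 and 2), and without CKD 2 the difference turned to -3.85 points. An exact permutation test of 2 against 2 libraries cannot give a two-sided p below 0.333, so none was run.

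The same library set the share among T lymphocytes. Of all cells with at least 2 Cd3 UMIs, members made up 12.6% in the control (10.7 to 14.6), 14.9% in AKI 1 (14.0 to 15.8), 14.6% in AKI 2 (13.7 to 15.6), 12.2% in CKD 1 (11.4 to 13) and 25.2% in CKD 2 (24.0 to 26.5). The number of members per CD8 T lymphocyte was 0.396, 0.305, 0.302, 0.326 and 0.689. Thus the CD8 gate, which takes a UMI of either Cd8 gene, held more cells than the members' gate, which needs a Cd4 UMI, in every library. The CKD-to-AKI difference among Cd3-positive cells was 3.96 points (means 18.7 and 14.7, pooled SD 6.53) and -2.56 points without CKD 2.

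The shares also moved with the depth per cell. Between 27.9 and 54.3% of cells with at least 2 Cd3 UMIs had no UMI of Cd4, Cd8a, Cd8b1 or Foxp3. When every kept cell with at least 2000 UMIs was thinned to 2000 UMIs before the gates were applied, an alternative chosen after seeing the data, members made up 1.05, 5.65, 5.39, 3.01 and 7.62% of kept cells. The share among Cd3-positive cells was then 7.99, 9.66, 9.71, 9.15 and 13.1%, and the number of members per CD8 T lymphocyte was 0.29, 0.217, 0.219, 0.256 and 0.38. CKD 2 remained the highest library on both shares and on this ratio. The CKD-to-AKI difference was -0.207 points of kept cells and 1.44 points of Cd3-positive cells.

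**Figure D1:**
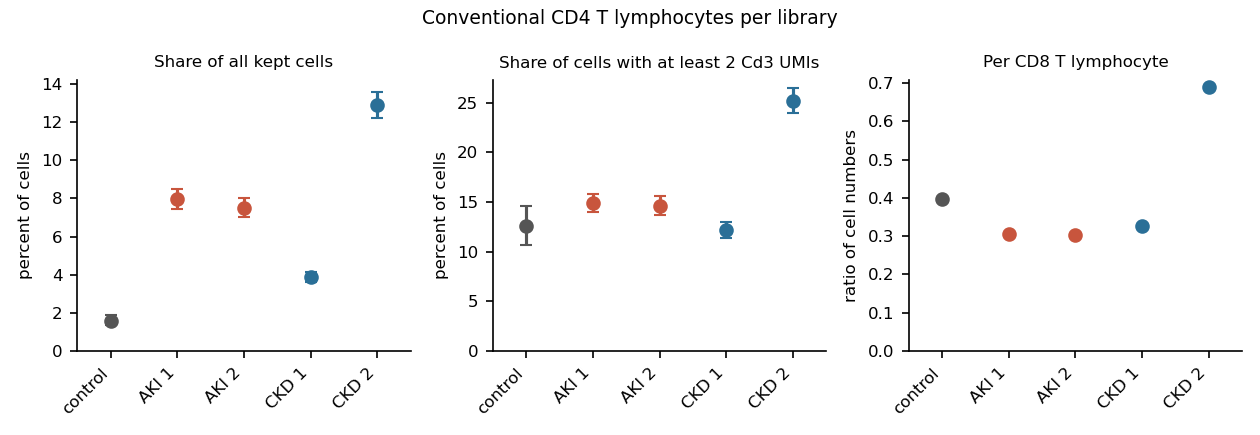
Share of conventional CD4+ T lymphocytes among kept cells (left, percent), among cells with at least 2 Cd3 UMIs (middle, percent) and number per CD8 T lymphocyte (right), by library, with exact 95% binomial intervals as bars. Among kept cells the control sits at 1.59% and CKD 2 at 12.9%, with the 2 CKD libraries on either side of AKI.

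To describe what set the helper cells apart, members were compared with CD8 T lymphocytes of the same library, using edgeR's quasi-likelihood test with the library as a block and Benjamini-Hochberg adjustment. The difference covered 1756 of 11638 genes (15.1%), of which 917 were higher in members (7.88%) and 839 were lower (7.21%). Cd40lg, Tnfsf8, Tnfsf11 and Tnfrsf4 were higher, as were 10 of 12 follicular helper genes, and 14 of 16 cytotoxic genes were lower. None of the genes named here was used by a gate.

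Cd40lg was 13-fold higher in members than in CD8 T lymphocytes (log2 difference 3.7, SE 0.12, adjusted p = 3.7e-08). Tnfsf8, which encodes CD30 ligand, stood at 79.0, 262, 324, 232 and 269 in members and at 7.75, 24.2, 29.5, 26.2 and 39.8 in CD8 T lymphocytes (log2 difference 3.13, SE 0.11, adjusted p = 3.7e-08). Tnfrsf4, the costimulatory receptor OX40, stood at 33.9, 312, 362, 348 and 409 against 2.22, 25.6, 35, 47.8 and 47.7 (log2 difference 3.17, SE 0.11). For each of these genes members lay above CD8 T lymphocytes in every library.

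Tnfsf11 encodes RANKL, the ligand of the receptor RANK on cells of the myeloid lineage and on epithelium. It stood at 14.5, 92.2, 91.7, 83.8 and 88.3 in members and at 4.43, 23, 19.3, 16.3 and 16.9 in CD8 T lymphocytes, a 4.5-fold difference (log2 2.17, SE 0.08, adjusted p = 4.9e-08). The transcript was spread over many cells, since 836 members carried its 1728 UMIs and the top 5 cells held 3.36% of them. After thinning to 1000 UMIs, 1.37% of control members and 6.41 to 8.13% of members in the AAI libraries had a Tnfsf11 UMI, whereas CD8 T lymphocytes reached at most 1.97% and tubule cells at most 0.689%.

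Secreted mediators differed as well. Lta, which encodes lymphotoxin alpha, stood at 53.2, 73.7, 80, 73.9 and 55.0 in members and at 6.09 to 16.6 in CD8 T lymphocytes (log2 2.27, SE 0.15, adjusted p = 2.6e-06). Tnf was higher by 1.2 on the log2 scale (SE 0.15, adjusted p = 0.00032), with 158 to 256 in members and 43.2 to 103 in CD8 T lymphocytes. Il2, the growth factor of T lymphocytes, stood at 41.9, 36.5, 19.0, 16.5 and 13.4 against 15, 8.93, 11.4, 8.13 and 9.38 (log2 1.09, SE 0.21, adjusted p = 0.0046). Each of the 3 was higher in members in all 5 libraries. Ccl1, a chemokine that attracts CCR8-bearing cells, was higher by 3.74 (SE 0.4, adjusted p = 9.5e-05) but uneven, as 262 members carried its 2861 UMIs, 30.4% of them in 5 cells. Csf2, which encodes GM-CSF, was higher by 2.26 (SE 0.36, adjusted p = 0.0015), and 57.4% of its 129 UMIs came from 5 cells.

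Of 18 ligands to macrophages and stroma that were tested, 10 were higher, 4 were lower and 4 were not called, with a median log2 difference of 0.49 against -0.02 over all genes. Ifng, the Th1 cytokine that activates macrophages, was among those not called. It stood at 529, 486, 562, 511 and 428 in members and at 322, 444, 526, 380 and 379 in CD8 T lymphocytes (log2 0.23, adjusted p = 0.093). Ccl5, a chemokine of memory and effector T lymphocytes, was lower in members by 1.7 on the log2 scale (log2 -1.7, SE 0.16, adjusted p = 4.7e-05), with 966, 3390, 3510, 3110 and 3590 against 6430, 9740, 9820, 6980 and 9670. Ccl3 was also lower (log2 -1.5), but cells with no Cd3 UMI held 188 to 782 CPM of it, more than the members.

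Follicular helper genes were mostly higher, with 10 of 12 tested higher and 1 lower (median log2 0.92). Izumo1r, which encodes folate receptor 4, stood at 56.4, 113, 159, 84.4 and 115 in members against 10.5, 18, 20.4, 22.9 and 24.0 (log2 2.39, SE 0.14, adjusted p = 1.2e-06). Tox2 was higher by 2.55 and Hif1a, the oxygen-sensing transcription factor, by 1.04. The transcription factor Bcl6 was higher by 0.64 (adjusted p = 0.0059), a call that was lost when cells were thinned to 1000 UMIs. After that thinning 0.489 to 2.74% of members had a Bcl6 UMI and 0.689 to 1.98% of tubule cells did, and at most 0.685% of members had a Cxcr5 UMI. UMIs of both genes, which define follicular helper cells, were thus rare in members at this depth. How many members expressed them below detection was not tested.

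Costimulation and the Th2 and Th17 lists followed. Of 20 activation and memory genes 11 were higher and 1 was lower (median log2 0.33). Icos stood at 156 to 213 in members and 34.9 to 121 in CD8 T lymphocytes (log2 0.98, adjusted p = 0.00062), and the hyaluronan receptor Cd44 at 174 to 225 and 86.9 to 141 (log2 0.68, SE 0.06, adjusted p = 2.7e-05). Gata3 stood at 108, 140, 126, 93.5 and 127 against 79.7, 76.8, 73.5, 59.8 and 70.5 (log2 0.69, SE 0.07, adjusted p = 4.1e-05). Rora, a retinoid-related receptor active in several helper and innate lineages, stood at 216, 435, 454, 507 and 495 against 86.9, 205, 207, 192 and 235 (log2 1.13, SE 0.06, adjusted p = 1.2e-06). Maf stood at 290 to 355 in members and 46.1 to 111 in CD8 T lymphocytes (log2 2.19, SE 0.16, adjusted p = 5.1e-06), and at 130 to 234 in cells with no Cd3 UMI. In these 5 genes the member libraries lay above their paired CD8 libraries throughout. Of the lists, 4 of 5 Th2 genes tested were higher and 1 was lower, and 4 of 10 Th17 genes were higher and 1 was lower.

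The cytotoxic list was the reverse, with 14 of 16 genes lower in members, 1 higher and a median log2 difference of -1.88. Gzma, a granzyme, stood at 4.84, 10.1, 13.7, 18.8 and 20 in members and at 98.0, 198, 201, 176 and 243 in CD8 T lymphocytes (log2 -3.79, SE 0.12, adjusted p = 3.7e-08). Gzmb was at 0 in control members and at 9.79 to 13.2 in the AAI libraries, against 149 to 204 (log2 -4.02, SE 0.15, adjusted p = 4.9e-08). The natural killer receptors Klrd1 (log2 -3.6) and Klrk1 (log2 -3.34), the surface antigen Cd7 (log2 -2.87) and Ly6c2 (log2 -3.52) were the other genes with the largest negative differences. The granule gene Nkg7 was nevertheless detected in 28.1 to 32.1% of thinned members, against 54.8 to 70.9% of CD8 T lymphocytes and at most 7.17% of tubule cells. Of 15 naive genes 2 were higher and 6 lower, and Ccr7 was not called (log2 0.52, adjusted p = 0.099). Tbx21 was not called either (-0.24, adjusted p = 0.2). Of 77 ribosomal protein genes 41 were lower and none was higher, with a median of -0.12.

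**Figure D2:**
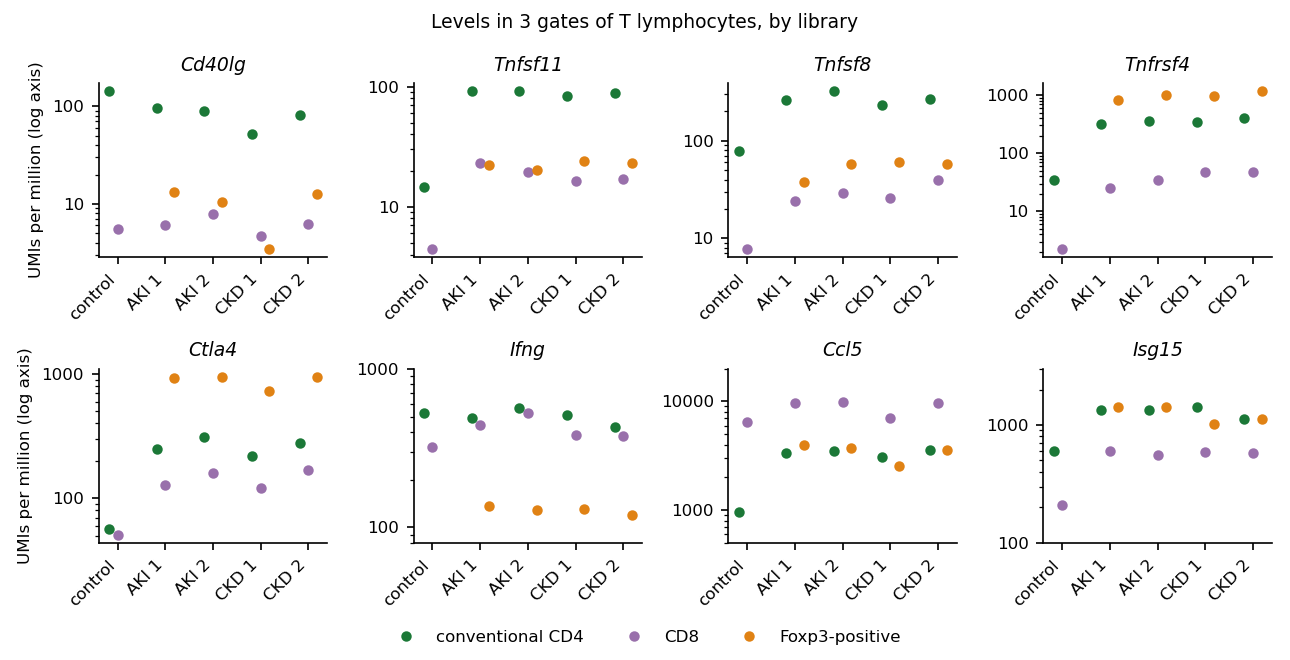
CPM (log axis) of 8 genes in conventional CD4+, CD8 and Foxp3-positive T lymphocytes, 1 point per library. Cd40lg, Tnfsf11 and Tnfsf8 are highest in conventional CD4+ cells, Tnfrsf4 and Ctla4 in Foxp3-positive cells and Ccl5 in CD8 cells.

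Interferon-stimulated genes, which encode antiviral proteins and chemokines, were in part higher in members than in CD8 T lymphocytes. Of 37 tested, 18 were higher in members, 1 was lower and 18 were not called (median log2 0.37). The promoters of 3 of them are shown because the interferon-stimulated response element that the factor ISGF3 recognises can be read in them. The capitals mark matches to GAAANNGAAA or its reverse complement TTTCNNTTTC, the core of that element, searched on both strands with overlapping matches joined. Each line gives the 250 bases before the transcription start as annotated by RefSeq on GRCm38.p6, read 5′ to 3′ on the gene's strand.
Isg15 promoter, chr4:156200819-156201068, minus strand: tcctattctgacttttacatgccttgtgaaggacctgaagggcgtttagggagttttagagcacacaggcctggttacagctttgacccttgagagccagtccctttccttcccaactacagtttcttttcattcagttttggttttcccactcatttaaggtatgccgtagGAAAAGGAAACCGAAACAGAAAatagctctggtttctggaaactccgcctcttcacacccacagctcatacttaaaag
Ifit1 promoter, chr19:34640639-34640888, plus strand: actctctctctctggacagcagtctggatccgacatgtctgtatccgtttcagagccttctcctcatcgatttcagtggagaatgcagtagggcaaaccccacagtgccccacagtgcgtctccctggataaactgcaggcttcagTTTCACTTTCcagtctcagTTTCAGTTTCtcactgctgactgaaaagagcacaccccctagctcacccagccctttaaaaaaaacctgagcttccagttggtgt
Cxcl10 promoter, chr5:92348890-92349139, minus strand: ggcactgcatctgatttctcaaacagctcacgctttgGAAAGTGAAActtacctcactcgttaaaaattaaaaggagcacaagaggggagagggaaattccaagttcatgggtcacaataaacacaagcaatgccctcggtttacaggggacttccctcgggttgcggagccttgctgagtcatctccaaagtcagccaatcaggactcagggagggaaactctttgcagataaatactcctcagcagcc

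The Isg15 promoter held 3 matches, Ifit1 held 2 and Cxcl10 held 1. The motif was present in 936 of 27025 mouse promoters of this length (3.46%). It was present in 10 of the 13 promoters at hand for interferon-stimulated genes higher in members (76.9%) and in 11 of 16 for the other interferon-stimulated genes tested (68.8%), and these shares were not compared by a test. These matches are letters in a window and do not show binding.

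Isg15, a ubiquitin-like protein, stood at 600, 1350, 1330, 1420 and 1120 in members and at 208, 598, 553, 589 and 575 in CD8 T lymphocytes (log2 1.16, SE 0.07, adjusted p = 1.8e-06). Ifit1, which binds foreign RNA, stood at 582, 1010, 1130, 1050 and 715 against 109, 336, 356, 298 and 310 (log2 1.63, SE 0.12, adjusted p = 8.5e-06). Cxcl10, the chemokine that attracts CXCR3-bearing lymphocytes, stood at 819, 2050, 2540, 2380 and 1980 against 201, 715, 821, 1000 and 1090 (log2 1.37, SE 0.13, adjusted p = 3.3e-05). For all 3 the control was the lowest member library and was still above the control CD8 library. Ifi27l2a (log2 1.31, SE 0.13, adjusted p = 5.1e-05) was higher too.

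These transcripts were found in many members. After thinning to 1000 UMIs, Isg15 was detected in 29.5, 54.9, 54.4, 59.4 and 50.6% of members and in 7.44, 12.3, 12.6, 19.0 and 7.75% of tubule cells. Cxcl10 was detected in 21.2, 51.2, 52.2, 58.9 and 49.6% of members, in 9.54 to 42.6% of CD8 T lymphocytes and in 8.99 to 35% of tubule cells. Per 1000 UMIs of a cell, the median number of UMIs over 39 interferon-stimulated genes was 3, 5, 5, 6 and 5 in members and 1, 2, 2, 3 and 3 in CD8 T lymphocytes. Foxp3-positive cells of the AAI libraries had medians of 9, 8, 7.5 and 7.

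**Figure D3:**
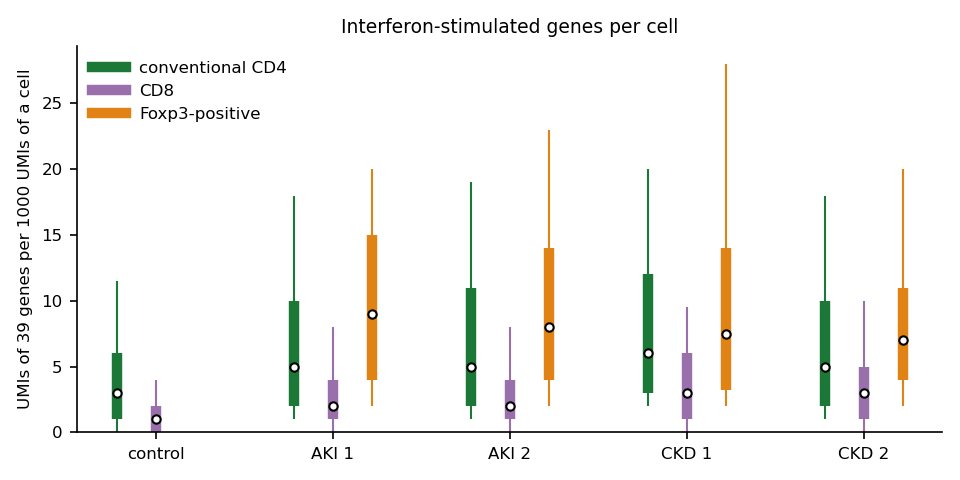
UMIs of 39 interferon-stimulated genes per 1000 UMIs of a cell, by library and gate. White points are medians over cells, thick bars run from the 25th to the 75th percentile and thin lines from the 10th to the 90th, and the members' median is 3 in the control and 5 to 6 in the AAI libraries, above CD8 in each library.

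Against Foxp3-positive T lymphocytes, compared over the 4 AAI libraries in the same way, 1425 of 9692 genes differed (14.7%), with 628 higher in members (6.48%) and 797 lower (8.22%). The ligands Cd40lg, Tnfsf8 and Tnfsf11, Ifng and most T cell receptor signalling genes were higher in members, and regulatory and Th2 genes were lower. In this paragraph and the next one values of Foxp3-positive cells are listed for AKI 1, AKI 2, CKD 1 and CKD 2. Cd40lg stood at 13.1, 10.4, 3.43 and 12.7 in Foxp3-positive cells (log2 difference 3.01, SE 0.16, adjusted p = 6.7e-09), Tnfsf8 at 37.7, 57.9, 60 and 57.8 (2.43, SE 0.12, adjusted p = 3.4e-09) and Tnfsf11 at 22.3, 20.1, 24.0 and 23 (2.06, SE 0.12, adjusted p = 2.9e-08). Members were thus the highest of the 3 gates for each of the 3 ligands in every library compared. The chemokines Ccl1 (log2 4.05, SE 0.24) and Xcl1 (log2 3.22, SE 0.11, adjusted p = 6e-11) led the list.

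Ifng stood at 137, 128, 130 and 119 in Foxp3-positive cells, so that members were higher by 1.98 on the log2 scale (SE 0.08, adjusted p = 8.1e-10). Tbx21 was higher by 1.48 (adjusted p = 1.5e-05), Cxcr6, a receptor of T lymphocytes that stay in tissue, by 1.87, and Tcf7, a factor of memory and naive cells, by 2.04 (SE 0.2). Of 21 Th1 genes tested 10 were higher and 5 lower (median log2 0.31), of 20 T cell receptor genes 15 were higher and 1 lower (0.33), and of 16 ligands 8 were higher and 4 lower (0.68). Il10, an inhibitory cytokine, was lower by 3.25 (log2 -3.25), with 20.6, 24.6, 6.62 and 11.3 in members of the AAI libraries against 185, 159, 53.2 and 190. Klrg1 (log2 -3.69, adjusted p = 1.7e-10), Il1rl1, the receptor of interleukin 33 (log2 -3.32), and Lrrc32, which anchors latent TGF-beta (log2 -3.26), were lower as well.

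The 6 tested regulatory T markers other than Foxp3 were all lower in members (median log2 -2.2). The log2 difference was -2.96 for Il2ra and -2.5 for Ikzf2, and Ctla4, an inhibitory receptor, stood at 251, 314, 218 and 281 in members of the AAI libraries against 927, 946, 724 and 951 (log2 -1.71). Tnfrsf4 was lower in members than in Foxp3-positive cells (log2 -1.44), as were Tnfrsf9 (-2.56), Tnfrsf18 (-1.46), Areg (-2.4), Gata3 (-0.94) and the homing receptor Ccr7 (-1.87), which stood at 290, 396, 382 and 340 in Foxp3-positive cells. All 7 Th2 genes tested were lower (median log2 -0.94). The gate asks for a Foxp3 UMI, and regulatory cells without one would be counted as members. The 7 regulatory T markers, with Foxp3 at 0 by the rule, summed to 153, 449, 549, 388 and 452 in members, to 1820 to 2560 in Foxp3-positive cells of the AAI libraries and to 109 to 276 in CD8 T lymphocytes.

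Few members carried Ccr7, and many carried transcripts of antigen-experienced cells such as Ifng. After thinning to 1000 UMIs, Ccr7 was detected in 4.11, 3.27, 5.05, 4.01 and 4.89% of members against 1.03 to 3.73% of tubule cells. Cd44 was detected in 16.4, 18.1, 19.6, 20 and 21.0% of members and in 1.61 to 7.68% of tubule cells. Ifng was detected in 29.5, 30.2, 31.5, 29.1 and 30.2% of members and in at most 4.01% of tubule cells. The share of members with an Ifng UMI thus lay within a narrow range over all 5 libraries, the control included.

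Regulators of the helper subsets were detected as well. Tbx21 was found in 5.48, 5.42, 4.8, 3.34 and 4.81% of members against at most 0.732% of tubule cells, and Gata3 in 8.54 to 13.7% against 1.03 to 5.67%. Il17a, the Th17 cytokine, had 114 UMIs in 13 members, 91.2% of them in 5 cells.

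Receptors for tissue entry and residence were detected above the tubule cells. Cxcr6 was detected in 17.1, 13.4, 17.0, 11.7 and 14.9% of members (at most 1.4% of tubule cells) and Cxcr3, the receptor of CXCL10, in 11.0, 8.92, 6.9, 8.81 and 10.0% (at most 1.28% of tubule cells). Cd69, which keeps lymphocytes in tissue, was detected in 41.8, 33.2, 36.3, 27.0 and 32.4%, against 0.775 to 5.26% of tubule cells. Ccl5 was detected in 38.4% of control members and 74.2 to 75.5% of members in the AAI libraries, beside 3.41% and 15 to 34.9% of tubule cells. S100a4, a calcium-binding protein of motile cells, was detected in 27.4, 27.1, 20.6, 46.5 and 38.6% of members and in 2.6, 4.58, 3.78, 33.4 and 8.01% of tubule cells. Both CKD libraries lay above the other 3, with CKD 18.7 points above AKI (pooled SD 5.1), while the tubule background of CKD 1 was also the highest.

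Of 39 state genes described in this way, CKD and AKI libraries did not overlap for 17, with 6 higher and 11 lower in CKD. Cd44 was 1.71 points higher in CKD (SD 0.911) and Cd69 was lower (-5.05 points, SD 3.15). Direction depended on thinning for some genes. Without thinning 14 genes did not overlap. Nkg7 and Ifng then went from lower in CKD (-1.37 and -1.26 points) to higher (6.83 and 5.13). The libraries overlapped for Cd69 (-2.83), and Cd44 remained higher (9.81). Over all genes tested, on the CPM scale, 20.4% were higher and 17.0% lower in both CKD than in both AKI libraries. No test was run on the shares, since an exact permutation test of 2 against 2 libraries cannot give a p below 0.333.

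**Figure D4:**
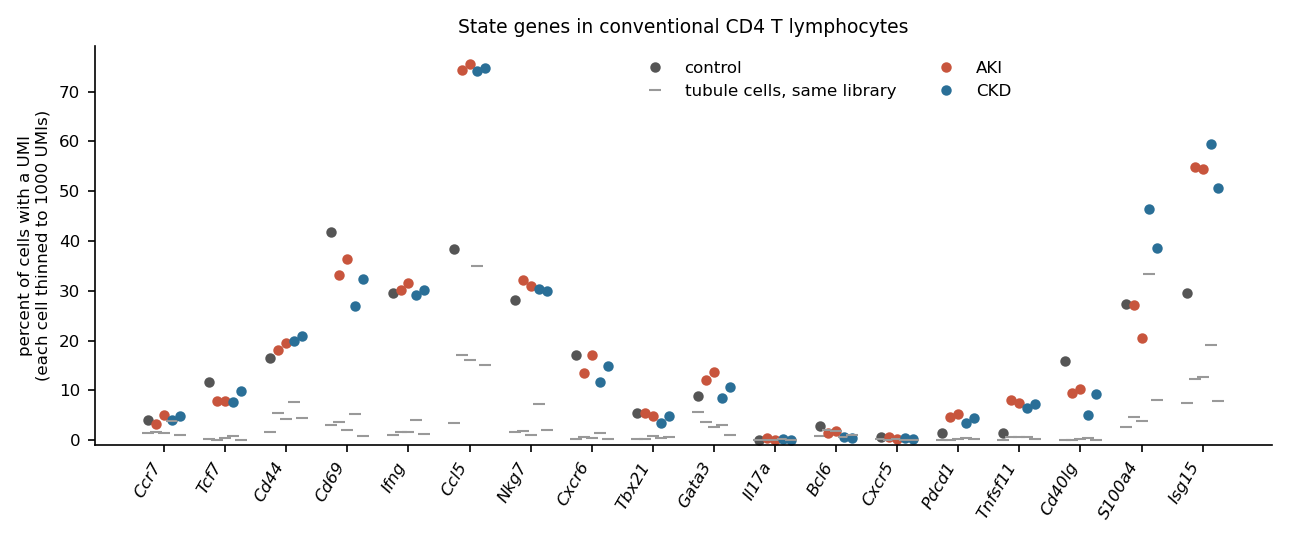
Percent of conventional CD4+ T lymphocytes with a UMI of each of 18 genes after every cell was thinned to 1000 UMIs, 1 point per library, with tubule cells of the same library as dashes. Il17a and Cxcr5 lie at the tubule level, Ifng lies near 30.2% in every library, and Ccl5, Tnfsf11 and Isg15 are lowest in the control.

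To ask what differed between the AKI phase and the control kidney, the summed members of all 5 libraries were fitted together with edgeR, and the single control was assumed to vary like the AKI and CKD groups. AKI differed from control in 17 of 11969 genes (0.142%), with 13 higher (0.109%) and 4 lower (0.0334%). The costimulatory receptor Tnfrsf4, the ligands Tnfsf11 and Areg and several induced regulators were higher in AKI, and Satb1, Lyst, Klrk1 and Ly6c2 were lower. The call rested on thin support, since 0 genes were called with DESeq2's size factors in place of TMM or without either AKI library, 1787 had an unadjusted p under 0.05 and the DESeq2 test called 134. In simulated data of this design 0% of genes changed 2-fold were recovered.

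Tnfrsf4 was 10.5-fold higher in AKI than in control (log2 3.39, SE 0.31, adjusted p = 0.041), its control value resting on 21 UMIs in 13 cells. Tnfsf11 was 6.66-fold higher (log2 2.74, SE 0.27, adjusted p = 0.041), with 9 control UMIs in 7 cells. Areg, an epidermal growth factor receptor ligand linked to tissue repair, had 1 UMI in control members and 503 in AKI members. The ratio was 39.7, with a 95% counting interval of 7.1 to 1570.0. All 3 genes were also high in both CKD libraries, where Areg stood at 45.8 and 40.4. Tnfrsf4 and Areg were higher in Foxp3-positive cells than in members, and Tnfsf11 was lower there. The 7 regulatory T markers summed to 153 in control members and to 449 and 549 in AKI members. Of 6 tested, 5 were higher in both AKI libraries (41.3% over all genes) and 1 was lower, none called (median log2 1.28). The part of regulatory cells without a Foxp3 UMI in these rises was not tested.

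Regulators induced by receptor signalling were higher too. Rgs16, which dampens chemokine receptor signals, stood at 21.0, 196, 264, 130 and 137 (log2 3.53, SE 0.36, adjusted p = 0.041). The nuclear receptor Nr4a3 stood at 29.0, 184, 176, 105 and 112 (log2 2.7, SE 0.24) and Ier5l at 27.4, 133, 154, 56.3 and 55.8 (log2 2.46, SE 0.26, adjusted p = 0.042). The integrin subunit Itgav stood at 48.4, 238, 261, 196 and 187 (log2 2.44, SE 0.22), the p53 target Pmaip1 at 45.2, 196, 220, 206 and 191 (log2 2.28, SE 0.22) and Odc1, the first enzyme of polyamine synthesis, at 484, 1660, 1650, 1420 and 1300 (log2 1.85, SE 0.19, adjusted p = 0.042). For each of these 6 the control was the lowest library. Cxcl2 (ratio 17.3, counting interval 5.9 to 84.3, from 3 control UMIs), Fabp5 and Pmepa1 also passed, but cells with no Cd3 UMI held as much or more of them.

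Satb1, a chromatin organiser of naive T lymphocytes, was lower in AKI (log2 -2.6, SE 0.22, adjusted p = 0.041), with 113, 19.7, 15.7, 23.2 and 19.4. Lyst, a regulator of lysosome size, stood at 150, 27.4, 33.8, 32.5 and 32.6 (log2 -2.22, SE 0.21, adjusted p = 0.041). Klrk1, the activating receptor NKG2D, stood at 56.4, 4.68, 3.36, 13.8 and 9.17 (log2 -3.72, SE 0.38) and Ly6c2, a surface antigen of memory T lymphocytes and monocytes, at 124, 15.9, 11.7, 30.6 and 27.9 (log2 -3.08, SE 0.23), both at adjusted p = 0.041. In all 4 genes the control was well above the AAI libraries. Klrk1 came from 16 of 146 control members and Satb1 from 40. The 7 gamma-delta and NKT markers summed to 54.8 in control and to 11.0 and 13.1 in AKI, and none was called. All 7 were tested here, against 2 for CKD against AKI, since the low-count filter kept genes that reached its minimum in the control alone. That all were lower in AKI (median log2 -2.58) was thus partly set by the filter. The part of these markers in the Klrk1 and Ly6c2 values was not tested.

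Among all genes 44.7% were lower and 41.3% were higher in both AKI libraries than in control. Of 15 naive genes tested 13 were lower and 1 was higher, 1 of them called, with a median log2 difference of -1.3 against 0.05 over all genes. In the same comparison 9 of 10 proximal tubule markers (median -1.66), 6 of 8 distal nephron markers (-2.06) and 4 of 4 tested B lymphocyte markers (-2.81) were lower, none called. For CKD against AKI the filter kept 8 of the proximal tubule and 1 of the B lymphocyte markers. Markers kept through the control alone could only count as lower, so the counts for these lists were partly set by the filter. The median mitochondrial share was 6.98% in control members and 3.42 and 3.26% in AKI, and the part of these differences in the naive genes was not tested. Inhibitory receptors had 10 of 14 higher, 1 called (median 1.62), and ligands had 13 of 20 higher, 2 called (median 0.7). The interferon-stimulated genes summed to 4810 in control and 7110 and 7870 in AKI, while their median log2 difference was -0.36, with 12 of 38 higher and 24 lower and none called. Sum and median thus differed in direction. Ifng, with a log2 difference of 0.06 (adjusted p = 0.91), was not called.

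CKD was compared with the same control library in the same fit, so the comparisons share that library. No gene of 11969 was called by edgeR (0.0%), while 2027 had an unadjusted p under 0.05 (16.9%) and DESeq2 called 132. Tnfrsf4 (log2 3.54, SE 0.31, adjusted p = 0.061), Tnfsf11 (log2 2.63, SE 0.28, adjusted p = 0.061) and Rgs16 (log2 2.73, adjusted p = 0.072) had positive differences. Satb1 (log2 -2.36), Lyst (-2.14) and Ly6c2 (-2.03), each at adjusted p = 0.061, and Klrk1 (-2.27, adjusted p = 0.078) had negative ones. Of 15 naive genes 13 were lower in both CKD libraries than in control (background 42.2%), with a median of -1.49. All 18 cell cycle genes tested were higher in both CKD libraries (background 40.7%, median 1.25), none called, although the rule limits Mki67 and Top2a.

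The comparison of CKD with AKI asks how members differed after AAI had been stopped. No gene of 10788 was called by edgeR over the 2 and 2 libraries (0.0%), 737 had an unadjusted p under 0.05 (6.83%), and DESeq2 called 55, 32 higher and 23 lower. Of genes changed 2-fold in simulated data of this design, 22.5% were recovered. The values below are therefore a description, with 20.4% of all genes higher and 17.0% lower in both CKD libraries than in both AKI libraries.

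Immediate-early genes, the first to be transcribed after a stimulus, mostly had lower levels in CKD. Of 28 tested, 20 were lower in both CKD libraries and 1 was higher (median log2 -0.45 against -0.0 over all genes). Fosb stood at 711, 688, 675, 364 and 403 (CKD against AKI log2 -0.85, SE 0.14, adjusted p = 0.31), Nr4a3 had a log2 difference of -0.74 (SE 0.13, adjusted p = 0.34) and Ier5l one of -1.38 (SE 0.14, adjusted p = 0.14), the smallest adjusted p named here. For Fosb the control lay with AKI, and for Ier5l and Nr4a3 it lay below CKD. The summed list stood at 18400 and 18800 in AKI and 13900 and 14800 in CKD members, at 18000 and 18700 and 13200 and 13900 in CD8 T lymphocytes, and at 27000 and 25500 and 17000 and 19000 in cells with no Cd3 UMI. In Foxp3-positive cells it stood at 14200 and 14800 in AKI and 13600 and 14100 in CKD. The CKD libraries were thus below the AKI libraries in members, CD8 T lymphocytes and cells with no Cd3 UMI, and closer to them in Foxp3-positive cells. In the interaction fits no gene of the list was called against either gate, and the median interaction over the 28 genes was -0.29 against Foxp3-positive cells and 0.05 against CD8 T lymphocytes. Such genes also respond to tissue dissociation, whose part was not tested.

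Several ligands and receptors had negative differences as well. Xcl1, the chemokine read by cross-presenting dendritic cells, stood at 434, 693, 868, 292 and 338 (log2 -1.33, SE 0.19, adjusted p = 0.21) and was detected in 23.3, 28.3, 31.8, 15.9 and 15.6% of thinned members against 1.32 to 4.93% of tubule cells. Il21r stood at 38.7, 114, 126, 71.7 and 79.0 (log2 -0.68, SE 0.15, adjusted p = 0.47). Tnfsf11 differed by -0.11 (SE 0.13, adjusted p = 0.91), Cd40lg by -0.49 (SE 0.25, adjusted p = 0.8) and Ifng by -0.19 (adjusted p = 0.87). The regulators Tbx21 (-0.42), Gata3 (-0.28) and Bcl6 (-0.82), the homing receptor Ccr7 (0.21), and Cd44 (0.05) were not called. Of 19 ligands tested 8 were lower and 3 higher without overlap (median -0.29), of 14 inhibitory genes 6 were lower and 2 higher (-0.29), and of 22 Th1 genes 8 were lower and 5 higher (-0.17).

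Other genes had higher levels in CKD. S100a4 stood at 550, 510, 447, 1160 and 871 (log2 1.06, SE 0.16, adjusted p = 0.24) and Lgals1, which encodes galectin 1, at 332, 460, 501, 813 and 745 (log2 0.67, SE 0.13, adjusted p = 0.43). Cells with no Cd3 UMI held 57.7, 173, 254, 1330 and 2170 CPM of S100a4, also highest in CKD, and the part of free RNA in the members' values was not tested. Acp5, an acid phosphatase of macrophages, stood at 45.2, 67.2, 88.1, 232 and 135 in members and at 7.58, 38.5, 120, 1220 and 1830 in cells with no Cd3 UMI. Of 7 dendritic markers tested, 6 were higher in both CKD libraries (median log2 0.87), and of 7 macrophage markers 4 were higher and 1 was lower (0.48). The dendritic markers Cd209a (2 and 1 UMIs in AKI, 42 and 92 in CKD) and Clec10a (2 and 1 against 30 and 54) passed the low-count filter through CKD alone. They could only count as higher, so the dendritic count and median were partly set by the filter. In cells with no Cd3 UMI both summed lists were lower in CKD. The 9 dendritic markers stood there at 7850 and 10600 in AKI and at 4760 and 7120 in CKD. The 12 macrophage and monocyte markers stood at 18900 and 27300 against 8080 and 11400.

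Of 18 cell cycle genes tested 14 were higher in CKD and none was lower (median log2 0.57), of 50 nuclear genes of the respiratory chain 23 were higher and none lower (0.24), of 19 glycolysis genes 8 were higher and none lower (0.17), and of 37 interferon-stimulated genes 15 were higher and 2 lower (0.19). The cell cycle genes summed to 2370 and 2550 in AKI members and 3010 and 2710 in CKD members. Cells with no Cd3 UMI had the same order, with 1310 and 1680 in AKI and 2480 and 2820 in CKD. So did CD8 T lymphocytes, with 1940 and 2030 against 3200 and 2480, and Foxp3-positive cells, with 3370 and 3400 against 3810 and 3590. In the interaction fit against CD8 T lymphocytes no cell cycle gene was called. The median interaction was -0.39 against -0.01 over all genes, a smaller rise in members. The summed respiratory chain genes overlapped between the phases, at 17000 and 14800 in AKI and 20900 and 16800 in CKD members. They stood at 16600 and 14900 against 23500 and 16900 in CD8 T lymphocytes and at 26200 and 22900 against 34200 and 28200 in cells with no Cd3 UMI. The summed interferon-stimulated genes overlapped too, at 7110 and 7870 in AKI and 8450 and 6920 in CKD.

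**Figure D5:**
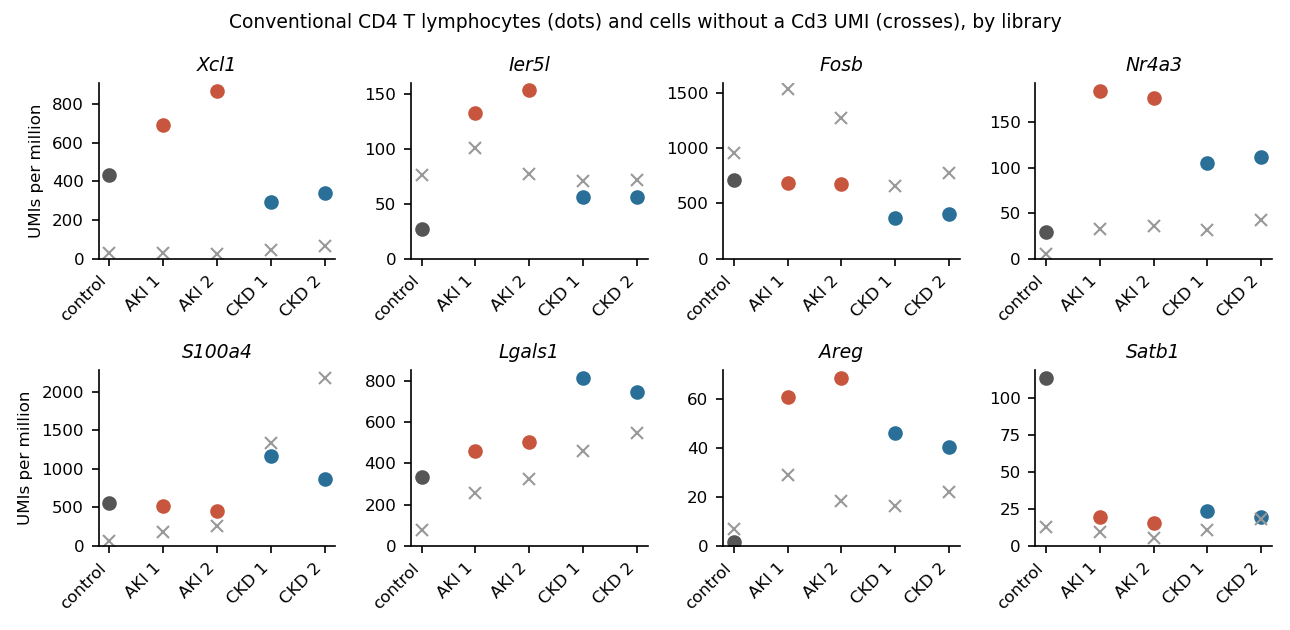
CPM of 8 genes by library in conventional CD4+ T lymphocytes (dots) and in cells with no Cd3 UMI (crosses). Xcl1, Ier5l, Fosb and Nr4a3 are lower in both CKD than in both AKI libraries, S100a4 and Lgals1 are higher, Areg is lowest and Satb1 highest in the control.

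Whether the CKD-to-AKI difference itself differed between cell types was tested with an interaction term. Against CD8 T lymphocytes 1 of 13132 genes was called (0.00761%), with 757 at an unadjusted p under 0.05 (5.76%). This was Ifi27l2a, an interferon-stimulated mitochondrial protein gene, whose log2 difference between CKD and AKI was 0.71 smaller in members (interaction -0.71, SE 0.08, adjusted p = 0.026). It stood at 1100, 1150, 1550 and 1390 in members of the AAI libraries and at 344, 383, 814 and 728 in CD8 T lymphocytes, so both gates were higher in CKD and CD8 T lymphocytes by more. Against Foxp3-positive cells 6 of 10605 genes were called (0.0566%), 3 with a higher and 3 with a lower difference in members (0.0283% each), with 456 at an unadjusted p under 0.05 (4.3%).

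Of these 6, Ctla2a, a cysteine protease inhibitor of lymphocytes, was the 1 gene that met the limits for named genes. It stood at 452, 539, 516 and 566 in members of the AAI libraries and at 623, 671, 350 and 336 in Foxp3-positive cells (interaction log2 1.02, adjusted p = 0.0055). The member libraries overlapped between the phases, the Foxp3-positive libraries were lower in CKD, and the call was lost without CKD 2. Acp5 stood at 67.2, 88.1, 232 and 135 against 66.1, 64.6, 550 and 791 (interaction -2.23, adjusted p = 0.017). Apoe (-2.2, adjusted p = 0.00074) and S100g (-1.89, adjusted p = 0.002) are genes of macrophages and of the distal nephron that cells with no Cd3 UMI held at 774 to 9340 and 650 to 5110 CPM. Ccl17 (4.34, adjusted p = 0.00072) rested on few cells, with 70.1% of 1337 UMIs in the top 5 members. For Fgg (3.56, adjusted p = 0.0055) the top 5 members held 47.0% of 266 UMIs, and the Foxp3-positive libraries were lower in CKD.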

How the data were processed

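The authors deposited raw UMI counts (whole numbers) for every barcode and gene, made with Cell Ranger from reads aligned with STAR, for 5 kidney libraries with 32285 genes each. The labels name Cell Ranger 7.2.0 and GRCm39, whereas the AKI and CKD file headers give version 5.0.0 and the control gene list names mm10, and which of these made the counts was not settled. The study's mitochondrial filter, CellBender and doublet removal are not part of the deposited counts. CellBender was not run here, and doublets were limited only by the gates and by an alternative without cells carrying other cells' markers.

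Members and comparison cells were gated on raw counts as described. Counts were summed per library and gate, because cells are not replicates, where the study tested single cells with rank-sum tests. They were tested with edgeR 4.0.16 in R 4.3.3 (TMM, filterByExpr, quasi-likelihood test, Benjamini-Hochberg adjusted p under 0.05), with DESeq2 1.42.0 as an alternative. CKD against AKI was fitted on 4 libraries and comparisons with the control on 5. Gates were compared with the library as a block. Common dispersion was 0.0393 for CKD against AKI and 0.00755 for members against CD8 T lymphocytes. The depth behind each library was 620083 to 7852363 UMIs of members. Shares of cells with a UMI were computed after thinning to 1000 UMIs in Python 3.11.15 with numpy 2.4.6, scipy 1.17.1 and pandas 2.3.3, and figures were drawn with matplotlib 3.10.9. Intervals are exact and cover counting error only.

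Leading genes had an adjusted p under 0.05, libraries without overlap (for gates, 1 sign in every library), a mean of at least 50 CPM in the higher group and a higher level than in cells with no Cd3 UMI. The 12 largest changes each way were named for CKD against AKI, 6 for other comparisons and 3 for interactions, with the 3 largest that failed the last limit. To these were added members of fixed lists by smallest adjusted p and a fixed set of T lymphocyte genes, and where fewer passed, fewer are named. Other genes given, and the genes with no call described for CKD against AKI, were chosen after their values were seen. A few genes are not reported here. The members and lists were chosen with earlier results of these data known. The scripts were tested on simulated counts with 200 genes changed 2-fold, of which 90.5% were recovered for members against CD8 T lymphocytes, 79.5% against Foxp3-positive cells, 22.5% for CKD against AKI, 0% for AKI against control and 0.5% for CKD against control. Alternatives changed the normalization, gene filter, tool, libraries, thinning, mitochondrial limit, depth minimum, Cd4 threshold and replicate block.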

Additional observations from a re-analysis of the deposited data

Results flagged for a closer look

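For 7 genes a test of the difference itself found that CKD against AKI differed between members and another T lymphocyte gate, and the values below are log2 differences in members minus those in the other gate. Against CD8 T lymphocytes this was Ifi27l2a at -0.71, where both gates stood higher in CKD. Against Foxp3-positive T lymphocytes these were Ctla2a at 1.02, Ccl17 at 4.34, Fgg at 3.56, Apoe at -2.2, S100g at -1.89 and Acp5 at -2.23. Ccl17 stood at 20.6, 3.08, 29.5 and 144 CPM in members of AKI 1, AKI 2, CKD 1 and CKD 2 and at 35.4, 3.05, 5.14 and 9.5 in Foxp3-positive cells. Its 1337 UMIs in members came from 76 cells, and the call was lost when cells were thinned and without AKI 1 or CKD 2. Fgg stood at 11.5, 10.3, 20.1 and 13.2 against 56.9, 46.3, 13.7 and 2.38, its call was lost without CKD 2, and 122 members carried its 266 UMIs. Thinning ended the calls for Apoe (-0.44), S100g (-0.59) and Acp5 (-0.77). The call for S100g was also lost without CKD 1, and that for Acp5 without AKI 2 or CKD 2 and with DESeq2.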

How the results depend on the processing

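The CKD-to-AKI difference in the share of kept cells was -3.85 to 5.18 points when 1 library was left out and -0.207 with gates applied to thinned cells. Among Cd3-positive cells it was -2.56 to 10.5 and 1.44. Of 39 state genes, 25 to 31 did not overlap with 1 library left out. The number was 14 without thinning, 20 after thinning to 2000 UMIs and 14 at the 15% mitochondrial limit. Genes called for CKD against AKI numbered 0 and became 3 with RLE scaling (DESeq2's size factors), 230 without a gene filter, 55 with DESeq2, 56 with the replicate block, 3 with all 5 libraries, 2 after thinning, 3 at a 15% mitochondrial limit, 3 with at least 1500 UMIs per cell, 21 without cells carrying other markers, 2 with at least 2 Cd4 UMIs, and 0 to 341 with 1 library left out (4 without AKI 1, 341 without CKD 1, 212 without CKD 2). For AKI against control the 17 became 0 with RLE, 818 without filter, 134 with DESeq2, 44 after thinning, 40 at the 15% limit, 171 without cells carrying other markers, which leaves 30 control members, and 0 to 696 with 1 library left out (0 without AKI 1 or AKI 2, 696 without CKD 1, 547 without CKD 2). For CKD against control the 0 became 936, 132 with DESeq2, 18, 45, 136 and 0 to 932 under the same settings except RLE (359 without CKD 2). Members against CD8 T lymphocytes gave 988 after thinning and 1083 to 2020 with 1 library left out. Against Foxp3-positive cells DESeq2 gave 784, thinning 688 and leaving out 1 library 854 to 1339. The interaction with CD8 gave 167 without filter, 5 with DESeq2, 11 after thinning and 23 to 103 with 1 library left out, and that with Foxp3-positive cells 57, 3 after thinning and 2 to 32.

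Single genes changed sign where their differences were near 0. For AKI against control Ifng went to -0.06 after thinning, -0.0 at the 15% limit and -0.08 to 0.19 without AKI 2 or AKI 1. For CKD against AKI the value became 0.01 for Areg and for Ifng and 0.0 for Gata3 with at least 2 Cd4 UMIs, 0.09 for Tnfsf11 without cells carrying other markers, -0.05 to 0.15 for Cd44 with 1 library left out (lowest without CKD 2), and for Ccr7 -0.13 after thinning, -0.01 with at least 2 Cd4 UMIs and -0.17 to 0.5 with 1 library left out (lowest without CKD 2). Of 329 values for 37 named genes against CD8 T lymphocytes, 321 kept direction and call, as did 220 of 223 against Foxp3-positive cells, 173 of 240 for AKI against control, 204 of 252 for CKD against AKI and 44 of 84 for CKD against control. The numbers of the libraries pair nothing by label. Deviations of same-numbered AKI and CKD libraries had r = 0.413 across genes, over only 2 pairs. The 2 libraries a group and 1 control limit every phase comparison, and the cause of these dependences was not tested.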

Other observations

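Within members, interferon-stimulated genes were detected together, an observation made after the values were seen and given without a test, since detection of each gene also moves with a cell's other RNA. Among members thinned to 1000 UMIs, Isg15 was detected in 51.6, 67.8, 69.8, 71.4 and 64.1% of those with a Cxcl10 UMI and in 23.5, 41.2, 37.6, 42.2 and 37.3% of those without, in the order control, AKI 1, AKI 2, CKD 1 and CKD 2. Ifit1 was detected in 48.4, 57.5, 60.6, 55.3 and 51.6% against 16.5, 25.5, 22.9, 30.8 and 18.7%. Tnf followed the same order, at 38.7, 21.4, 21.9, 18.8 and 18.9% against 10.4, 10.2, 11.9, 8.77 and 10.5%. The granule gene Nkg7 was less often detected beside Cxcl10, at 19.4, 24.4, 21.2, 26.5 and 22.7% against 30.4, 40.0, 41.8, 36.0 and 37.0%. Cxcr6, a receptor of resident cells, was at 12.9, 9.47, 11.3, 10.4 and 10.0% against 18.3, 17.6, 23.2, 13.6 and 19.7%. In each library, members with a Cxcl10 UMI thus had the higher share for Isg15, Ifit1 and Tnf and the lower share for Nkg7 and Cxcr6.

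Tnfsf8 was more often detected beside Tnfsf11 in each AAI library, also seen after the fact among several genes and given without a test. In AKI 1, AKI 2, CKD 1 and CKD 2, Tnfsf8 was detected in 37.5, 33.3, 25 and 30.3% of members with a Tnfsf11 UMI and in 15.2, 18.9, 16.4 and 18.5% of members without one. The control had 2 members with a Tnfsf11 UMI at that depth, so no share is given.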
